A study of Mus musculus with 16 samples.

Results

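The late transcriptional response to bortezomib was set against the early one by comparing NIH3T3 libraries harvested at 405 min with libraries harvested at 45 min. Libraries were chosen by the share of their fragments that fell in ribosomal protein genes. A library entered the comparison when that share was over 4%, which 3 libraries at 405 min (replicates 1, 3 and 4) and 2 at 45 min (replicates 1 and 2) met. These were 5 of the 8 libraries of the 2 times and 5 of the 16 of the series. The series followed NIH3T3, an immortalised mouse embryonic fibroblast line, at 0, 45, 135 and 405 min with 4 libraries a time. Every group carried DD-sfGFP, a destabilizing domain (a mutant FKBP12 that the proteasome degrades unless its ligand is bound) fused to superfolder GFP, which had been introduced stably and followed by a sort for high GFP. By the labels the 45 and 405 min groups differed in time after bortezomib alone, and the dose was not given. Vehicle-treated cells of the same ages were not analysed here and no untreated library exceeded 4%, so the effect of the drug and that of elapsed time cannot be told apart.

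The proteasome degrades proteins that carry ubiquitin chains, and bortezomib blocks its chymotrypsin-like active site. Cells that lose proteasome activity accumulate misfolded and short-lived proteins, and are known to answer through several transcription factors. Hsf1 induces the cytosolic chaperones of the heat shock response, Atf4 the amino acid and antioxidant genes of the integrated stress response, Nrf2 the glutathione and thioredoxin genes, p53 its arrest and death genes, and Nrf1 the proteasome subunits themselves. The genes Atf3, Slc7a11, Ppp1r15a and Dnajb1 were given as markers of the late response.

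The ribosomal protein share was the measure used for selection and is given as a description only. In the selected libraries it was 8.34% and 9.42% at 45 min (replicates 1 and 2) and 6.78%, 4.25% and 8.59% at 405 min (replicates 1, 3 and 4). The library just inside the threshold was 405 min replicate 3 with 4.25%, and the one just outside was 405 min replicate 2 with 0.907%. Replicates 3 and 4 at 45 min had 0.408% and 0.423%. The selected libraries differed 14.4-fold in depth, from 1385229 fragments in 405 min replicate 3 to 19930375 in 405 min replicate 4. Olfactory and vomeronasal receptor genes, which fibroblasts are not known to use, took up 0.00556% and 0.228% of fragments at 45 min and 0.338%, 2.62% and 0.00774% at 405 min, in the same order. Thus 405 min replicate 3 stood apart in depth, in ribosomal protein share and in receptor share, and list medians, calls and the distribution of fold changes are given with and without it. All 25 named genes kept their direction without it. Most of them were chosen below by smallest p in these same libraries, which favours this.

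**Figure D1:**
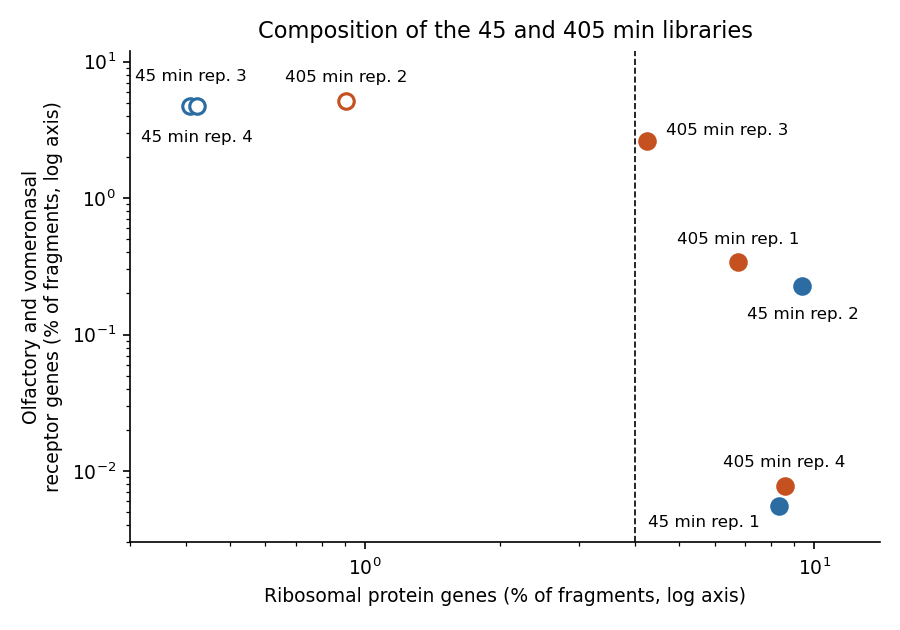
Each point is 1 library, placed by the share of its fragments in ribosomal protein genes (x axis, %, log scale) and in olfactory and vomeronasal receptor genes (y axis, %, log scale). Blue marks 45 min and orange 405 min, filled points are the 5 selected libraries, open points the 3 that were not selected, and the dashed line is the 4% threshold. The selected 405 min replicate 3 lies at 4.25%, next to the line, and its receptor share of 2.62% is the highest of the selected libraries.

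No gene passed the test across all genes. Of 10240 genes with at least 1 fragment in each of the 5 libraries, edgeR's quasi-likelihood test called 0 higher (0.0%) and 0 lower (0.0%) at 405 min with a Benjamini-Hochberg threshold of 0.05, and its smallest adjusted p was 0.521. An unadjusted p under 0.05 was reached by 299 higher genes (2.92%) and 363 lower ones (3.54%), against 512 in all if p-values were even. The biological coefficient of variation, the spread between libraries of a group beyond counting error, was 71.6%, with 3 residual degrees of freedom. DESeq2 called 34 genes higher (0.332%) and 19 lower (0.186%) from the same counts. edgeR's exact test called 3 higher, Atf3, Slc7a11 and Hspa1b, and 1 lower, Gas1. The values below are therefore described with their errors and are not calls of the main test.

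The count of calls turned on 405 min replicate 3. Without it, 9 of 10592 genes (0.085%) were higher and 0 were lower in edgeR's quasi-likelihood test, and the spread was 59.7%. The 9 genes were Atf3, Dnaja4, Dnajb1, Ier3, Phlda1, Ppp1r15a, Slc7a11, Snhg12 and Zfand2a. Each of these 9 was also a DESeq2 call with all 5 libraries. All 4 markers were among them, with an adjusted p of 0.00634 for Atf3 and for Slc7a11, 0.00678 for Ppp1r15a and 0.0193 for Dnajb1. The markers came with the library rule, and earlier results of these data were known. Their place among the calls is therefore no independent support for them. Without that library 492 higher and 591 lower genes of the 10592 reached an unadjusted p under 0.05.

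In the selected libraries the distribution of fold changes leaned to higher values at 405 min. The log2 fold change, 405 minus 45 min, had a median of 0.214 over all genes tested and was positive for 58.0% of them. It was at least 2 for 842 genes and at most -2 for 146. The lean lay mostly with weakly expressed genes, as the median was 0.812 over the 1707 genes with a mean under 10 CPM (counts per 1000000 fragments, scaled between libraries by TMM) and 0.106 over the other 8533. Without 405 min replicate 3 the median over all genes was 0.021, and with 405 min replicate 4 as the only late library it was -0.10. With all 4 libraries a side it was -0.0415, or 0.16 with the replicate number as a block. Leaving out 1 of the other selected libraries gave 0.10 to 0.36. The lean was therefore kept in some settings and not in others. Upper quartile scaling moved the median to 0.37, and list medians below are to be read against 0.214 under TMM.

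A count that needs no model was also made, by a rule chosen after the data had been seen. In 135 genes (1.32%) the lowest 405 min library was at least 2-fold above the highest 45 min library, and in 136 genes (1.33%) the highest 405 min library was at least 2-fold below the lowest 45 min library. With no margin, the groups did not overlap in 1052 higher genes (10.3%) and 1368 lower genes (13.4%). With 3 libraries against 2, groups often lie apart with no difference between the times. Lack of overlap in a gene is therefore a description only. Of the 53 DESeq2 calls, 42 lay in the genes separated 2-fold, and in 7 calls the groups overlapped.

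**Figure D2:**
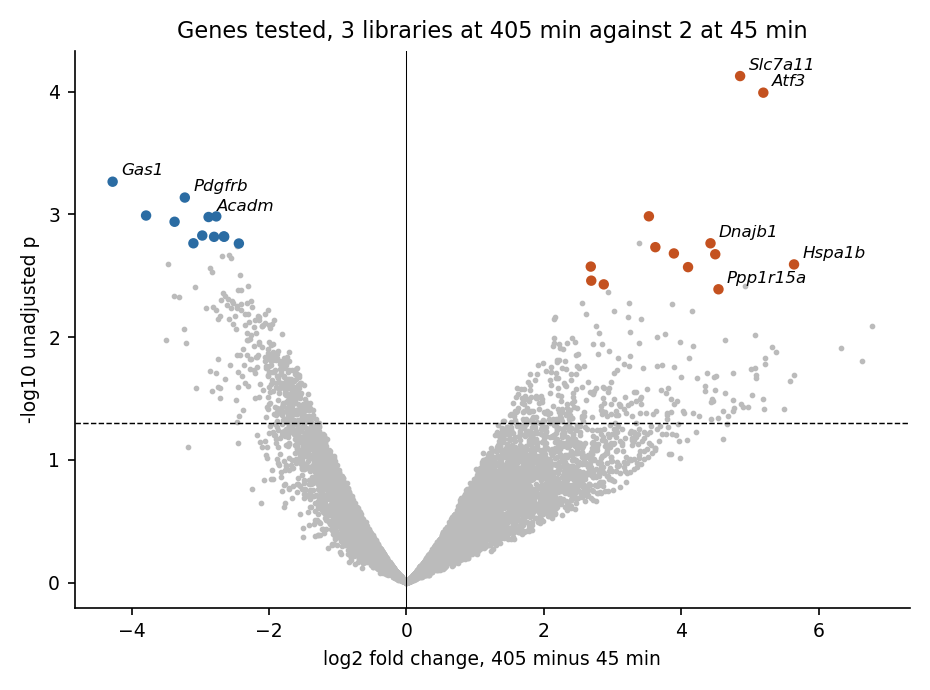
Each point is 1 of the 10240 genes tested, with the log2 fold change of 405 minus 45 min on the x axis and -log10 of the unadjusted p of the edgeR quasi-likelihood test on the y axis. The dashed line marks the unadjusted threshold of 0.05, and coloured points are the 4 markers and the 12 genes with the smallest p in each direction. Large positive fold changes outnumber large negative ones, with 842 genes at 2 or more and 146 at -2 or less, and Slc7a11 and Atf3 lie highest.

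Atf3 encodes a stress-induced bZIP repressor that Atf4 and other pathways switch on. It was at 2.71 and 6.10 CPM at 45 min (replicates 1 and 2) and at 177, 77.1 and 223 CPM at 405 min (replicates 1, 3 and 4). The 405 min libraries all lay far above both 45 min libraries, with a fitted log2 difference of 5.20 (SE 0.88, edgeR adjusted p = 0.521). Slc7a11, the light subunit of the cystine-glutamate exchanger that feeds glutathione synthesis, was at 7.13 and 5.36 CPM at 45 min and at 225, 103 and 218 CPM at 405 min. Its groups did not overlap either, at 5.36 to 7.13 CPM early and 103 to 225 CPM late, or 4.86 on the log2 scale (SE 0.79, edgeR adjusted p = 0.521).

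Ppp1r15a (Gadd34) directs phosphatase 1 to eIF2α and so ends the translational block of the integrated stress response. It was at 8.68 and 5.18 CPM at 45 min and at 304, 8.64 and 174 CPM at 405 min. Here the groups overlapped, since 405 min replicate 3 was level with 45 min replicate 1 while the other 405 min libraries were far higher. The fitted log2 fold change, with that library, was 4.54 (SE 1.26, adjusted p = 0.709), and 5.01 without it. Dnajb1, the Hsp40 co-chaperone that hands unfolded clients to Hsp70, was at 19.1 and 23.1 CPM at 45 min and at 797, 82.4 and 482 CPM at 405 min. Its groups did not overlap, although 405 min replicate 3 lay well below the other 405 min libraries, and the fitted difference was 4.43 on the log2 scale (SE 1.08, adjusted p = 0.709).

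The libraries that were not selected gave another picture of the markers. Their composition differed as well. Receptor genes took up 4.72% and 4.70% of fragments in 45 min replicates 3 and 4 and 5.13% in 405 min replicate 2. The part of composition in the values of these libraries was not tested. In fragments per 1000000 without further scaling (FPM), Atf3 was at 21.8 and 59.3 in 45 min replicates 3 and 4 and at 32.5 in 405 min replicate 2. Slc7a11 was at 110 and 60.9 against 63.7, Ppp1r15a at 50.3 and 19.2 against 52.0, and Dnajb1 at 37.4 and 80.1 against 49.4, in the same libraries. So only Ppp1r15a was higher in 405 min replicate 2 than in both unselected 45 min libraries. With all 4 libraries a side, the log2 fold changes were 2.92 (SE 0.95) for Atf3, 2.07 (SE 0.92) for Slc7a11, 2.95 (SE 1.02) for Ppp1r15a and 3.39 (SE 1.04) for Dnajb1, each with an adjusted p of 1. That fit of 8957 genes called 0 higher and 0 lower in edgeR's quasi-likelihood test, with 55 and 53 at an unadjusted p under 0.05. Of the 135 genes separated 2-fold upwards in the selected libraries, 51.9% were higher in 405 min replicate 2 than the mean of 45 min replicates 3 and 4, beside 54.7% of all genes tested. Of the 136 separated downwards, 40.4% were lower there, beside 45.2% of all genes tested. The genes at an unadjusted p under 0.05 in the main edgeR quasi-likelihood test followed less often. Of the 299 higher ones 40.8% were higher in these unselected libraries, and of the 363 lower ones 38.6% were lower.

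Among the genes with the smallest p after the markers, several encode chaperones or bind the proteasome. Hspa1b, one of the stress-inducible Hsp70 genes, was at 72.7 and 184 CPM at 45 min and at 2835, 9294 and 7105 CPM at 405 min. All 405 min libraries were above both early ones, and 405 min replicate 3 was the highest, so that the log2 fold change was 5.64 (SE 1.45) with it and 5.27 without it. Hspa1b is nearly identical to its neighbour Hspa1a, and how reads were divided between them is uncertain. Hspa1a was left out of the test for a count of 0 in 45 min replicate 1. The pair together was at 71.6 and 164 FPM at 45 min and at 3327, 10110 and 5952 at 405 min, so the order of the libraries did not depend on the split. In the unselected libraries Hspa1b was at 12.9 and 52.9 FPM in 45 min replicates 3 and 4 and at 1292 in 405 min replicate 2. All 4 libraries at 405 min thus exceeded all 4 at 45 min for this gene.

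Dnaja4, another Hsp40 protein, was at 2.82 and 11.5 CPM at 45 min and at 142, 31.9 and 139 CPM at 405 min (log2 fold change 3.89, SE 0.97). Zfand2a (Airap) encodes a stress-inducible zinc finger protein that binds the proteasome. It was at 48.1 and 12.9 CPM at 45 min and at 1131, 191 and 752 CPM at 405 min (log2 fold change 4.50, SE 1.13). In both genes the groups were separate, and 405 min replicate 3 was the lowest of the late libraries.

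Promoter sequences were read for genes of these groups from RefSeq windows of GRCm38.p6, which run from 250 bases before to 50 bases after the start. The windows were searched on both strands for the cyclic AMP response element TGACGTCA, which Atf and Creb proteins bind, and for the heat shock element, which Hsf1 binds, taken as 3 alternating GAA and TTC units with 2 free bases between them. The first was found in 2.03% of the windows of 27025 genes and the second in 0.662%. Shown are the 200 bases before the start, 5′ to 3′ on the gene's strand, of a marker and a chaperone-linked gene that hold the first element and of the mitochondrial co-chaperonin Hspe1, which holds the second. They were chosen after the matches had been seen, and the match is in capitals.
Ppp1r15a: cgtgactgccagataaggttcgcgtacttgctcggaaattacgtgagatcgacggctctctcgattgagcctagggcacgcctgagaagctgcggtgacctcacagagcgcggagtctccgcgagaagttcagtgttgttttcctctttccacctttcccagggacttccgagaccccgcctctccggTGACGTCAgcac
Zfand2a: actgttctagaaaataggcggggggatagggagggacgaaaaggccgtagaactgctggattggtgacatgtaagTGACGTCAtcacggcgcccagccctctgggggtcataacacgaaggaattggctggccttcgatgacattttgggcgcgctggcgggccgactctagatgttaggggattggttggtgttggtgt
Hspe1: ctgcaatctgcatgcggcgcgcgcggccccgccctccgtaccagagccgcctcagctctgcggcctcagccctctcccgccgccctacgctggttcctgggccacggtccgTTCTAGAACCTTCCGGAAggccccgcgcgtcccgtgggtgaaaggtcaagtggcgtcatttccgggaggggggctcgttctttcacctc
The Ppp1r15a stretch is chr7:45526269-45526468 on the minus strand, and its element lies from -12 to -5 relative to the start. The Zfand2a stretch is chr5:139484492-139484691 on the minus strand, with the element from -125 to -118. The Hspe1 stretch is chr1:55087948-55088147 on the plus strand, with overlapping matches from -89 to -72. Of the 25 named genes, 17 had a window, and no other one held either element in this window. The same windows were also searched for the C/EBP-ATF element TGATGNAAT, the antioxidant element TGACTCAGC, the TATA box and the CCAAT box. No named gene with a window held the C/EBP-ATF element, which 1.08% of all genes with a window held. Among the named genes the antioxidant element lay in Procr alone, beside 0.503% of all genes with a window. Of the genes separated 2-fold upwards 79.3% had a window, under the minimum coverage set for a check over a gene set, so shares were not compared between sets. Matches are descriptions of letters and were not tested as sites.

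The remaining genes with the smallest p in the upward direction had varied roles. Phlda1, a pleckstrin-homology gene of the immediate response, was at 21.3 and 8.32 CPM at 45 min and at 273, 60.5 and 217 CPM at 405 min (log2 fold change 3.62, SE 0.89). Napb, a SNAP protein that recycles SNARE complexes, was at 5.53 and 2.41 CPM against 52.1, 38.5 and 48.8 CPM (3.53, SE 0.80). The 3 late libraries lay close together for Napb, and they were spread for Phlda1. Sox4, a high-mobility-group transcription factor, was at 3.81 and 1.11 CPM against 85.3, 30.6 and 14.7 CPM (4.10, SE 1.06). This gene turned to a log2 fold change of -0.19 with all 4 libraries a side. Procr, the endothelial protein C receptor, was at 7.24 and 12.4 CPM against 64.6, 53.8 and 70.0 CPM (2.68, SE 0.70). Has2, a hyaluronan synthase, was at 10.2 and 4.25 CPM against 31.6, 59.1 and 69.6 CPM (2.87, SE 0.78). The noncoding host gene of small nucleolar RNAs Snhg5 was at 39.5 and 36.3 CPM against 196, 166 and 371 CPM (2.69, SE 0.73). For Procr, Has2 and Snhg5, as for Napb, 405 min replicate 3 lay within or near the range of the other late libraries. Unselected 405 min replicate 2 was also set against the mean log2 level of 45 min replicates 3 and 4. It was higher for Napb, Procr, Snhg5, Dnaja4 and Zfand2a. It was lower for Phlda1 (log2 difference -1.855), Sox4 (-2.036) and Has2 (-0.402).

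**Figure D3:**
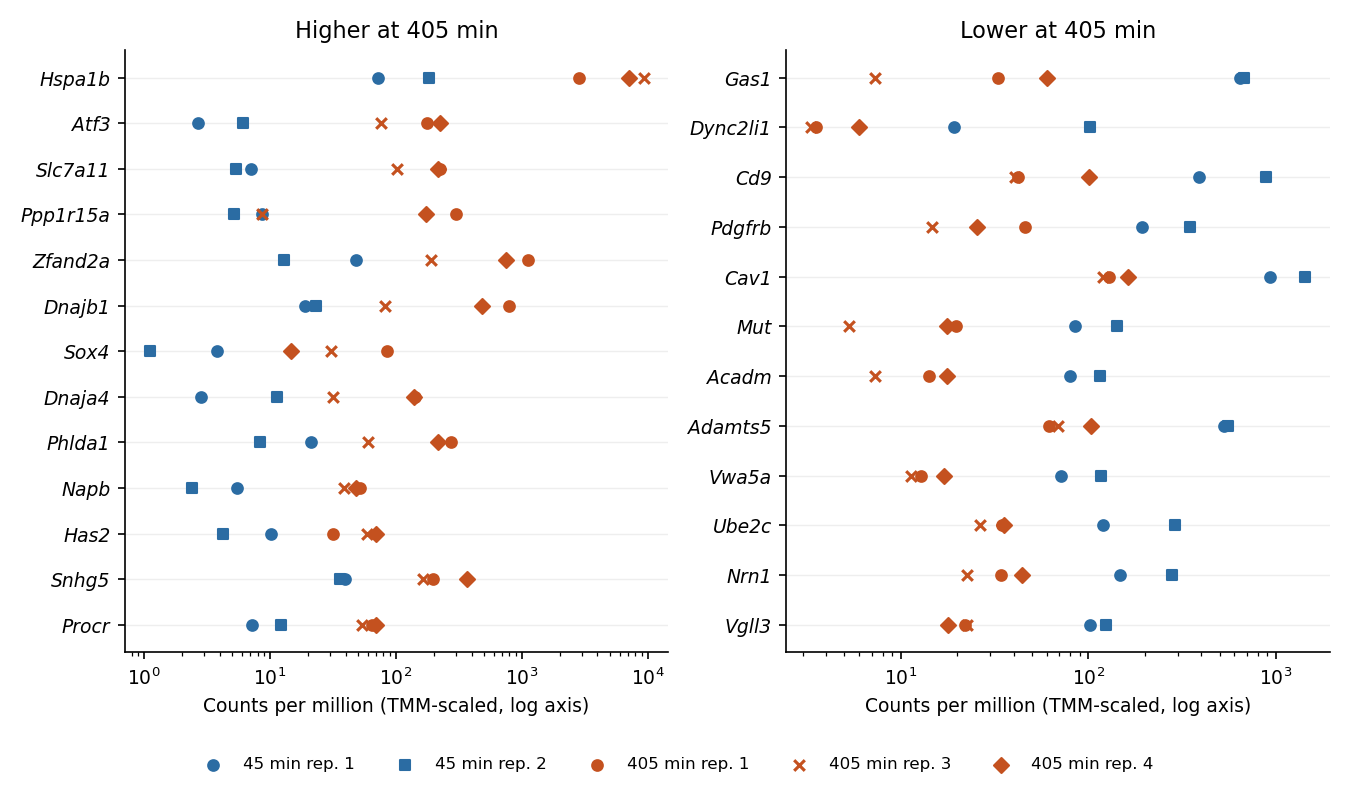
TMM-scaled CPM (x axis, log scale) of the 13 named genes that were higher (left) and the 12 that were lower (right) at 405 min, with 1 symbol per library, blue for 45 min and orange for 405 min. The groups are apart for every gene but Ppp1r15a, where 405 min replicate 3 (8.64 CPM) lies on 45 min replicate 1 (8.68 CPM). The genes other than Ppp1r15a were among those of smallest p in these same libraries, a choice that favours groups lying apart.

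In the downward direction Gas1 had the smallest p. It encodes a membrane protein of growth-arrested fibroblasts that also serves as a hedgehog co-receptor. Its values were 640 and 671 CPM at 45 min and 33.0, 7.31 and 59.9 CPM at 405 min. The early libraries were nearly level and all late ones were far lower, with a log2 fold change of -4.28 (SE 0.89, edgeR adjusted p = 0.709) that was -3.85 without 405 min replicate 3. In the unselected libraries it was at 91.2 and 60.9 FPM in 45 min replicates 3 and 4 and at 32.5 in 405 min replicate 2, again lower at the later time. Most other named lower genes did not follow there. Against the mean log2 level of those 45 min libraries, 405 min replicate 2 was lower for Pdgfrb, Vwa5a and Vgll3. It was higher for Cd9 (log2 difference 5.03), Nrn1 (1.81), Ube2c (1.35), Adamts5, Dync2li1, Cav1, Mut and Acadm.

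Of the other named lower genes, 5 encode membrane or secreted proteins. Pdgfrb, the receptor for platelet-derived growth factor B, was at 194 and 347 CPM at 45 min and at 45.8, 14.6 and 25.4 CPM at 405 min (log2 fold change -3.23, SE 0.70). Cav1, the coat protein of caveolae, was at 927 and 1428 CPM against 129, 120 and 162 CPM (-3.10, SE 0.75). The late libraries were within a narrow range for Cav1, 405 min replicate 3 included. Cd9, a tetraspanin, was at 391 and 885 CPM against 41.9, 40.5 and 101 CPM (-3.38, SE 0.78). Adamts5, an aggrecan-cleaving protease, was at 530 and 554 CPM against 61.4, 68.4 and 103 CPM (-2.80, SE 0.67). Nrn1, a GPI-anchored protein named for its role in neurite growth, was at 148 and 279 CPM against 34.4, 22.6 and 44.3 CPM (-2.65, SE 0.63). None of these overlapped between the groups, which their choice by smallest p in these libraries favoured.

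The rest of the named lower genes had varied roles. Acadm, the medium-chain acyl-CoA dehydrogenase of mitochondrial fatty acid oxidation, was at 79.4 and 116 CPM against 14.1, 7.31 and 17.7 CPM (log2 fold change -2.88, SE 0.65). Mut, the mitochondrial methylmalonyl-CoA mutase, was at 84.8 and 143 CPM against 19.6, 5.32 and 17.6 CPM (-2.97, SE 0.71). In both, 405 min replicate 3 was the lowest library. Dync2li1, a light intermediate chain of the dynein that works in cilia, was at 19.2 and 102 CPM against 3.55, 3.32 and 5.98 CPM (-3.79, SE 0.86). Ube2c, the ubiquitin-conjugating enzyme of the anaphase-promoting complex, was at 120 and 288 CPM against 34.5, 26.6 and 35.5 CPM (-2.66, SE 0.63). Vwa5a was at 71.0 and 117 CPM against 12.8, 11.3 and 17.0 CPM (-2.77, SE 0.63), and Vgll3, a cofactor of TEAD transcription factors, at 102 and 125 CPM against 22.1, 22.6 and 17.9 CPM (-2.44, SE 0.59). For Dync2li1, Ube2c, Vwa5a and Vgll3 the late libraries differed by less than 2-fold among themselves. Every named gene other than Atf3 and Slc7a11 had an adjusted p of 0.709 in edgeR's quasi-likelihood test.

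Gene lists are described next by the number of their members with a positive log2 fold change and by their median, beside 5935 of 10240 and 0.214 over all genes tested, or 0.021 without 405 min replicate 3. Counts of members at an unadjusted p under 0.05 (edgeR quasi-likelihood test) stand beside 299 higher (2.92%) and 363 lower (3.54%) of these 10240 genes. Without 405 min replicate 3 the numbers were 481 higher and 574 lower of the same 10240 genes. Where a list's median is given with a second value, the second was computed without that library unless another setting is named. Members named from here on, other than the genes above, were chosen after their values had been seen. The cytosolic chaperones leaned upwards. Of 9 tested Hsp70 and Hsp110 genes 7 were positive (median 0.76, then 0.58), of 11 Hsp40 genes 9 (median 1.003, then 0.94) and of 11 Hsp90 and co-chaperone genes 10 (median 1.43, then 1.81). Unadjusted p was under 0.05 for 2 members, 3 members and 0 members of these lists, all higher, and without 405 min replicate 3 for 3, 3 and 4. Hsph1, an Hsp110 nucleotide exchange factor, was at 372 and 125 CPM at 45 min and at 5161, 498 and 5430 CPM at 405 min (log2 fold change 3.90, SE 1.40). Hsp90aa1, the inducible cytosolic Hsp90, was at 2701 and 3607 CPM against 11740, 13350 and 23670 CPM (2.37, SE 1.40). The groups were apart for both, with 405 min replicate 3 close to the early level for Hsph1 and within the late level for Hsp90aa1. Hspa8, the constitutive Hsp70, was at 4645 and 1338 CPM against 23940, 1849 and 22060 CPM (2.41, SE 1.60), and there 405 min replicate 3 lay between the early libraries.

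Medians of the other folding machines were close to that of all genes with the 5 libraries, but not without 405 min replicate 3. The CCT chaperonin, which folds actin and tubulin, had 4 of 8 genes positive (median 0.08, then 0.44), and the mitochondrial chaperones had 6 of 9 (median 0.27, then 0.62). Hspe1, whose promoter is printed above, was at 750 and 734 CPM at 45 min and at 1471, 712 and 3133 CPM at 405 min (log2 fold change 1.26, SE 0.98), overlapping through 405 min replicate 3. Small heat shock proteins and Bag co-chaperones had 4 of 7 positive (median 0.24, then 0.56). Among them Bag3, which links Hsp70 to selective autophagy, was at 45.1 and 44.8 CPM against 399, 52.5 and 257 CPM (2.40, SE 0.88), and Cryab was at 117 and 314 CPM against 1091, 326 and 1227 CPM (2.03, SE 0.94). In both genes 405 min replicate 3 was just above the higher early library. Of the ER chaperones and degradation factors, 10 of 20 were positive (median -0.01, then 0.10, and 0.17 with upper quartile scaling), none with an unadjusted p under 0.05, or 2 higher without 405 min replicate 3. Hspa5 (BiP), the main chaperone of that compartment, was at 412 and 640 CPM against 1386, 211 and 1123 CPM (0.79, SE 0.95).

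Proteasome subunits, the drug's own target complex, sat close to the background. Of 33 tested genes 22 were positive with a median of 0.25, and 0 had an unadjusted p under 0.05 in either direction. Without 405 min replicate 3 the median was 0.72, against 0.021 over all genes, and 6 of the 33 were higher at an unadjusted p under 0.05. Psmd3, a lid subunit, was at 63.7 and 18.3 CPM at 45 min and at 274, 22.6 and 125 CPM at 405 min (log2 fold change 1.78, SE 0.98). Psmb2, a subunit of the core particle, was at 60.5 and 9.25 CPM against 310, 14.6 and 130 CPM (2.12, SE 1.15). For both genes 405 min replicate 3 was within the early range and the other late libraries were above it. Psma2 lay the other way, at 189 and 493 CPM against 94.2, 181 and 171 CPM (-1.20, SE 0.70). The ubiquitin and p97 genes had 8 of 12 positive (median 0.32, then 0.61). Ubb, a polyubiquitin gene, was at 576 and 235 CPM against 2411, 360 and 3135 CPM (2.28, SE 1.15), again with 405 min replicate 3 between the early libraries. Arhgap21, Filip1l and Rn45s, which belong to no list, were listed at 0 in all 4 libraries at 405 min and were above 0 in the other 12 libraries. No difference is read from these entries.

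The autophagy list had 11 of 15 genes positive (median 0.13, then 0.39), with 3 higher at an unadjusted p under 0.05. They were Sqstm1 (p62), which carries ubiquitylated cargo, Ulk1, the initiating kinase, and Gabarapl1, an Atg8 protein. Sqstm1 was at 258 and 86.4 CPM at 45 min and at 4984, 69.8 and 1371 CPM at 405 min (log2 fold change 3.64, SE 1.56). Here 405 min replicate 3 was the lowest of the 5 libraries and the other late ones were the highest. Without that library 3 members of the list were higher at the same threshold.

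The Atf4 and integrated stress response list, to which 3 of the markers belong, had 21 of 26 genes positive, a median of 1.35, and unadjusted p under 0.05 for 5 higher members and 1 lower one. Beside the markers these were Chac1, which degrades glutathione, and Shmt2, of mitochondrial one-carbon metabolism. Chac1 was at 19.7 and 32.2 CPM at 45 min and at 163, 53.8 and 144 CPM at 405 min (log2 fold change 2.22, SE 0.73). The lower member was the transcription factor Cebpb, at 82.0 and 228 CPM against 38.1, 41.2 and 69.6 CPM (-1.64, SE 0.66). The groups of Chac1 and of Cebpb did not overlap. Atf4 itself, which is controlled largely by translation, was at 442 and 298 CPM against 532, 129 and 456 CPM (0.01, SE 0.79). Ddit3 (CHOP) was at 66.8 and 23.9 CPM against 218, 6.65 and 284 CPM (1.90, SE 1.16), with 405 min replicate 3 below both early libraries. The cytosolic aminoacyl-tRNA synthetases, many of which are Atf4 targets, had 17 of 19 positive (median 0.78, then 1.045), and Wars alone had an unadjusted p under 0.05, against 4 genes without 405 min replicate 3. Its values were 17.3 and 14.1 CPM against 96.0, 26.6 and 33.4 CPM (1.73, SE 0.77).

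The Nrf2 target list had 18 of 21 genes positive, a median of 1.25 and 5 higher at an unadjusted p under 0.05, of which Slc7a11 and Sqstm1 were named above. Hmox1, the heme-degrading oxygenase, was at 132 and 41.8 CPM at 45 min and at 1829, 37.9 and 900 CPM at 405 min (log2 fold change 3.41, SE 1.39). Srxn1, which reactivates peroxiredoxins, was at 46.8 and 25.5 CPM against 616, 29.9 and 265 CPM (3.07, SE 1.11). Abcc1, an exporter of glutathione conjugates, was at 51.4 and 62.9 CPM against 317, 73.8 and 163 CPM (1.70, SE 0.76). The level of 405 min replicate 3 was below both early libraries for Hmox1, between them for Srxn1 and just above them for Abcc1. Without that library 11 of the list were higher at an unadjusted p under 0.05 and the median was 1.67. The number was 14 for the Atf4 list, with a median of 1.57.

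Genes of NF-κB and inflammatory signalling were all positive, 15 of 15, with a median of 1.69 and 5 higher at an unadjusted p under 0.05. Ptgs2, the inducible cyclooxygenase, was at 129 and 37.4 CPM at 45 min and at 1267, 184 and 1159 CPM at 405 min (log2 fold change 3.39, SE 1.11). Cxcl10, an interferon- and NF-κB-induced chemokine, was at 1.11 and 11.3 CPM against 22.9, 177 and 50.2 CPM (3.77, SE 1.20). Relb, an NF-κB subunit, was at 4.31 and 4.07 CPM against 46.2, 41.2 and 14.8 CPM (3.01, SE 0.89). The groups were separate in these genes, as they were for Tnfaip3 (A20), a feedback inhibitor, at 5.64 and 6.66 CPM against 32.7, 42.5 and 17.8 CPM (2.33, SE 0.84). The highest late library was 405 min replicate 3 for Cxcl10 and Tnfaip3 and 405 min replicate 1 for Ptgs2 and Relb. Without replicate 3 the median was 1.11.

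The p53 targets had 17 of 19 genes positive and a median of 1.20, with 2 higher at an unadjusted p under 0.05. Without 405 min replicate 3 the median was 1.53 and 9 were higher at that threshold. Tnfrsf10b, the death receptor DR5, was at 63.9 and 43.5 CPM at 45 min and at 210, 179 and 323 CPM at 405 min (log2 fold change 2.14, SE 0.69). Gadd45a, a growth arrest gene, was at 60.1 and 110 CPM against 223, 201 and 525 CPM (1.90, SE 0.77). The late libraries exceeded the early ones in both. Cdkn1a (p21) was at 82.3 and 13.5 CPM against 338, 13.3 and 206 CPM (1.95, SE 1.16), and Mdm2 was at 285 and 491 CPM against 874, 568 and 1517 CPM (1.35, SE 0.86). Replicate 3 at 405 min was the lowest library for Cdkn1a and was above the early ones for Mdm2. Of the Bcl2 family 7 of 11 were positive (median 0.52, then 0.09, and 0.08 after the GC correction described below).

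Immediate early genes had 14 of 21 positive, but their median of 0.45 was -0.009 without 405 min replicate 3 and -0.10 after GC correction. Egr1, a serum-response factor target, was lower at an unadjusted p under 0.05, with 85.0 and 69.6 CPM at 45 min and 21.6, 39.2 and 6.77 CPM at 405 min (log2 fold change -1.80, SE 0.75). Ier3, an apoptosis regulator, was at 5.47 and 3.14 CPM against 139, 3.99 and 89.1 CPM (4.16, SE 1.23), so that 405 min replicate 3 lay between the early libraries. The dual-specificity phosphatases, which switch off MAP kinases, had 4 of 7 positive (median 0.40, then 0.45, and -0.11 after GC correction). Clock genes had 9 of 10 positive (median 1.24, then 0.68, and 0.32 with 405 min replicate 4 as the only late library). The smallest p among them was that of Cry2, at 4.81 and 4.07 CPM against 39.6, 15.3 and 9.13 CPM (2.27, SE 1.02). Metallothionein and zinc genes had 3 of 5 positive (median 0.36, then 0.20). Of the histone genes that are transcribed with DNA replication, 9 of 68 were tested and 8 of these were positive (median 1.93, then 1.45). That median was -0.91 without 405 min replicate 1, and the share of fragments in all 68 was 0.224% and 0.0291% at 45 min and 0.288%, 0.0591% and 0.0808% at 405 min.

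All 20 tested mitotic genes were negative, with a median of -1.27, and 8 were lower at an unadjusted p under 0.05. Aurkb, the kinase of the chromosomal passenger complex, was at 151 and 276 CPM at 45 min and at 37.1, 36.6 and 42.2 CPM at 405 min (log2 fold change -2.47, SE 0.60). Ccnb1, cyclin B1, was at 370 and 316 CPM against 62.4, 57.2 and 147 CPM (-1.95, SE 0.68). Cdc20, the activator of the anaphase-promoting complex, was at 205 and 289 CPM against 91.3, 44.5 and 87.3 CPM (-1.73, SE 0.63). The groups did not overlap in any of these, and the median was -1.10 without 405 min replicate 3. The median of the list ranged from -1.76 to -0.16 over all alternatives and was negative in each. In bulk RNA, fewer cells in mitosis and less of these mRNAs in each such cell cannot be told apart. The DNA replication list did not follow, with 9 of 18 positive and a median of -0.01 (then 0.26, and 0.08 with upper quartile scaling). Its member Cdc6, the helicase loader, was at 12.8 and 5.73 CPM against 52.7, 21.3 and 35.4 CPM (1.97, SE 0.80).

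Nuclear genes of oxidative phosphorylation had 16 of 18 negative values and a median of -0.85 (then -0.68), with 2 lower at an unadjusted p under 0.05. Ndufa1, a small complex I subunit, was at 75.7 and 354 CPM at 45 min and at 38.8, 42.5 and 73.9 CPM at 405 min (log2 fold change -2.05, SE 0.74), with the groups just apart. Ndufa4 was at 703 and 1766 CPM against 140, 294 and 483 CPM (-2.01, SE 0.86). With all 4 libraries a side and the replicate number as a block, the median of this list was 0.58. Glycolysis had 7 of 13 positive (median 0.60, then 0.72, and -0.22 after GC correction), and its member Ldha, lactate dehydrogenase A, was at 614 and 1265 CPM against 178, 128 and 315 CPM (-2.18, SE 0.78). Sterol synthesis had 10 of 19 positive with a median of 0.02 (then 0.29, and -0.04 with RLE factors). Ribosome biogenesis had 15 of 18 positive (median 0.37, then 0.60) and translation factors 8 of 19 (median -0.05, then 0.27, and 0.09 with upper quartile scaling).

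Fibroblast identity was checked on 8 markers. All 8 were present in each of the 5 libraries, and they took up 1.94% and 1.62% of fragments at 45 min and 1.58%, 0.336% and 1.33% at 405 min. Of the 8, 7 had a negative log2 fold change and the median was -1.55, with 3 lower at an unadjusted p under 0.05, Pdgfrb, S100a4 and Col3a1. S100a4, a calcium-binding protein of motile cells, was at 1195 and 607 CPM at 45 min and at 103, 19.3 and 119 CPM at 405 min (log2 fold change -3.48, SE 0.89). Col3a1, the type III collagen chain, was at 699 and 1243 CPM against 219, 171 and 260 CPM (-2.16, SE 0.74). In contrast Fn1 (fibronectin) was at 6035 and 3059 CPM against 9584, 1291 and 8086 CPM (0.48, SE 1.26), with the highest and the lowest library both at 405 min. The median was 0.47 with all 4 libraries a side and the replicate number as a block, and -1.17 without 405 min replicate 3.

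Collagen and matrix genes as a whole did not lean in the main comparison, with 11 of 20 positive and a median of 0.04 (then 0.41, and -0.03 with RLE factors). After GC correction their median was -0.57, against 0.137 over all genes. With 405 min replicate 4 as the only late library it was -0.425, against -0.096 over all genes. The proteoglycan Dcn was at 216 and 659 CPM at 45 min and at 47.1, 87.7 and 93.9 CPM at 405 min (log2 fold change -2.52, SE 0.73). Of the targets of SRF and YAP, which respond to actin and cell tension, 11 of 13 were negative (median -0.76, then -0.54). Actg1, cytoplasmic γ-actin, was at 4334 and 6020 CPM against 1195, 351 and 2008 CPM (-2.13, SE 1.07), and Thbs1, thrombospondin 1, was at 749 and 850 CPM against 294, 117 and 324 CPM (-1.70, SE 0.76). Both had separate groups, with 405 min replicate 3 the lowest. The TGF-β and BMP targets had 4 of 8 positive (median 0.22, then -0.51, and -0.72 after GC correction). Anxa1, a phospholipid-binding protein of no list, was at 1364 and 4034 CPM against 144, 390 and 245 CPM (-3.38, SE 0.95). Its log2 difference in the unselected libraries, 405 minus 45 min, was 3.87, which is the other way.

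Single libraries other than 405 min replicate 3 also decided the sign of several medians. It turned when 1 of the other libraries was left out for the small heat shock, CCT, mitochondrial chaperone, proteasome, autophagy, ER, metallothionein, Bcl2, phosphatase, TGF-β, collagen, DNA replication, sterol, glycolysis, translation and histone lists. It kept its direction in all 5 such fits for the Hsp70, Hsp40, Hsp90, ubiquitin, ribosome biogenesis, Atf4, tRNA synthetase, Nrf2, p53, NF-κB, clock, mitosis, oxidative phosphorylation, SRF and YAP and fibroblast lists.

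Markers of other cell types were near 0. No epithelial (5), endothelial (4), leukocyte (4) or muscle (4) marker had a fragment in all 5 libraries, and of 4 adipocyte markers Fabp4 did. The summed share of each of these 5 lists was at most 0.00967% in any library, and for each it was highest in 405 min replicate 3. Receptor genes moved with that library as well. Of 1445 olfactory and vomeronasal receptor genes, 10 were tested and all were positive, with a median of 2.66 that was 0.42 without 405 min replicate 3. The 289 tested genes named Zfp, which encode zinc finger proteins, had a median of 0.31 that was -0.21 without it. The part of this library's composition in the higher values of weakly expressed genes was not tested.

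**Figure D4:**
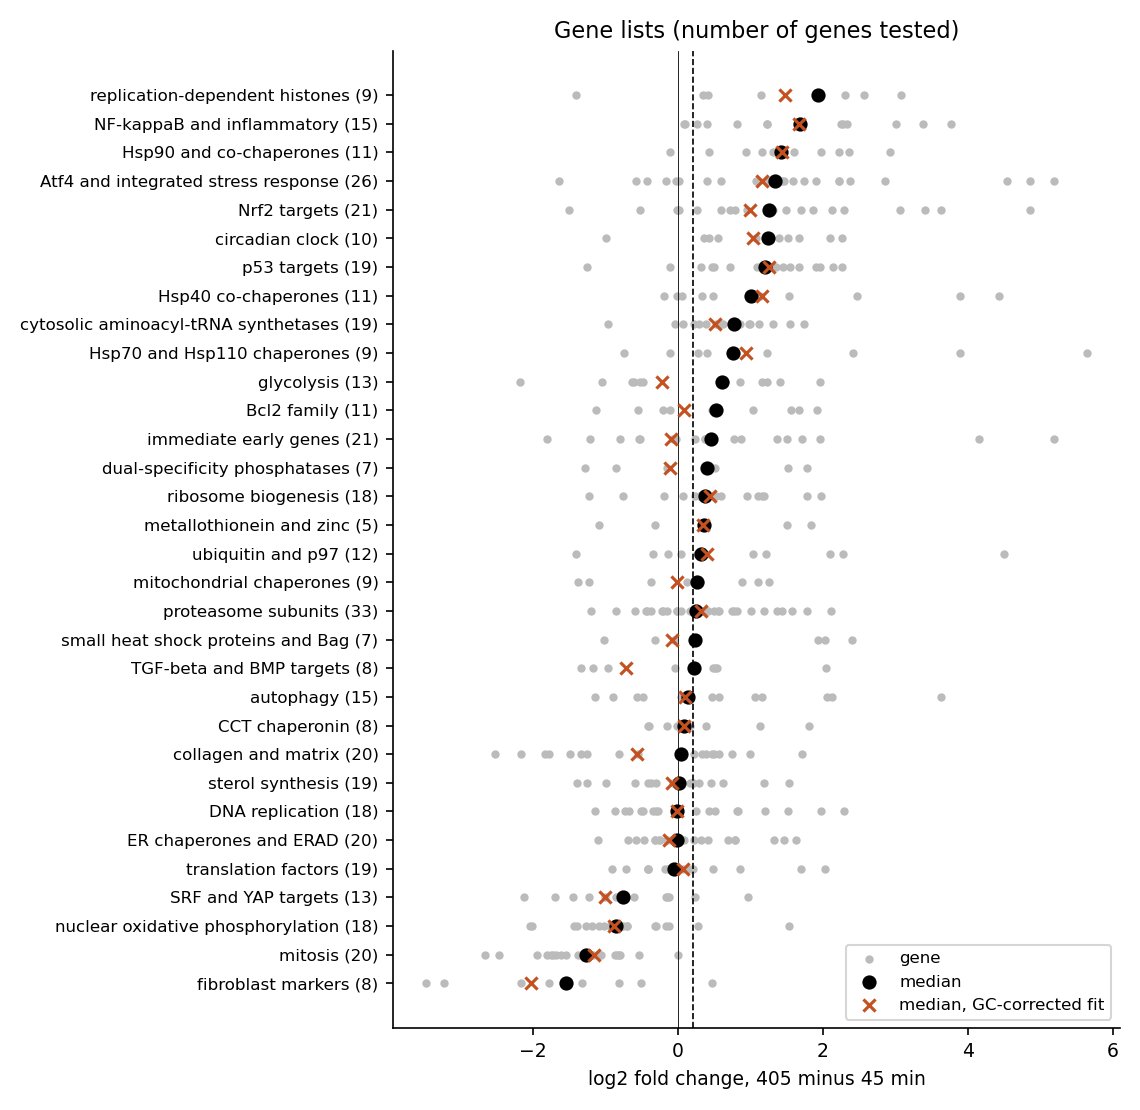
Log2 fold change of 405 minus 45 min (x axis) of each tested gene of a list (grey points), with the list's median in the main comparison (black) and after GC correction (orange cross). The number of genes tested stands in brackets, the dashed line is the median of all genes tested (0.214), and lists run from the highest to the lowest median. NF-κB genes, Hsp90 co-chaperones and Atf4 and Nrf2 targets lie to the right of the line, and mitotic, oxidative phosphorylation and fibroblast genes to its left.

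Transcript GC content moved with the comparison. Genes were ordered by GC content and divided into 4 bins of equal size. The median log2 fold change was -0.24 in the bin of lowest GC content (33.1 to 44.8%), and -0.01, 0.33 and 0.85 in the next ones, the last at 53.9 to 71.7% GC. An unadjusted p under 0.05 in the upward direction was found for 1.05% of genes in the lowest bin and 5.40% in the highest, and in the downward direction for 5.43% and 1.43%. Relative to a gene's mean over the 5 libraries, 45 min replicate 2 went from 0.43 in the lowest bin to -0.65 in the highest, and 405 min replicate 1 from -0.34 to 0.89. The opposite slopes of these 2 libraries were larger than those of the other 3. The genes separated 2-fold upwards had a median GC content of 52.3%, those separated downwards 45.5% and all genes tested 49.2%. The genes separated downwards were also shorter, with a median transcript length of 2405 bases against 3281 for those upwards and 3277 for all.

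**Figure D5:**
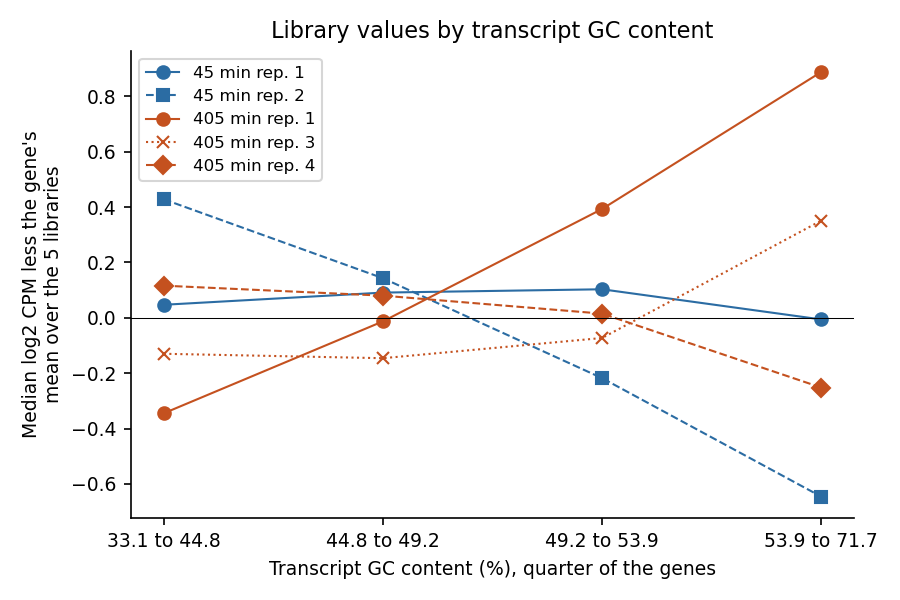
Median over genes of the log2 CPM of a library less the gene's mean over the 5 libraries (y axis), for 4 equal groups of genes ordered by transcript GC content (x axis, %), with 1 line per library, blue for 45 min and orange for 405 min. The line of 405 min replicate 1 climbs from -0.34 to 0.89 and that of 45 min replicate 2 descends from 0.43 to -0.65.

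A correction was therefore added, after the data had been seen, that removed each library's trend with GC content before the test. Over 9489 genes it called 0 higher and 0 lower in edgeR's quasi-likelihood test, with 242 higher and 365 lower genes whose unadjusted p was under 0.05, and the medians of the bins became 0.09, 0.14, 0.14 and 0.20. Of the named genes, all with a GC value kept their direction, which their large fold changes in these libraries favoured. Medians after correction were 1.16 for the Atf4 list, 0.99 for Nrf2 targets, 1.66 for NF-κB genes, 1.26 for p53 targets, 1.44 for Hsp90 co-chaperones, -1.16 for mitosis, -0.88 for oxidative phosphorylation and -2.02 for fibroblast markers, against 0.137 over all genes. Without 405 min replicate 3 the corrected fit called 4 genes higher and 0 lower. These were Atf3 (adjusted p = 0.0432), Slc7a11 (adjusted p = 0.0303), Ppp1r15a (adjusted p = 0.0388) and Ier3.

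The requirement of a fragment in every library left out 13116 genes, among them some with high late values. Gdf15, a stress cytokine of the integrated stress response, had 0 and 0 fragments at 45 min and 1014, 24 and 648 at 405 min (replicates 1, 3 and 4). Saa3, an acute-phase gene, had 0 and 0 against 367, 11 and 525. Each late library held fragments where the early ones, of 18381116 and 6107601 fragments, held none. Sesn2, a stress-induced sestrin, had 132 and 0 against 2120, 14 and 256, and Trib3, a pseudokinase that inhibits Atf4 signalling, had 82 and 0 against 945, 18 and 98. Fosl1, an AP-1 subunit, had 53 and 0 against 1007, 23 and 123. Cxcl1, a neutrophil chemokine, had 10 and 0 against 581, 4 and 335. For these 4 genes the 0 lay in 45 min replicate 2. In all, 617 genes were at 0 in both 45 min libraries and above 0 in all 405 min libraries, and 5 were the other way round. Genes at 0 made up 45.2% and 38.7% of the table at 45 min and 5.65%, 17.9% and 43.1% at 405 min, so these counts also move with how many genes each library detected, and that part was not tested.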

How the data were processed

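RNA-seq libraries of NIH3T3 DD-sfGFP cells were grouped by sample titles. The labels name total RNA and a NuGEN kit, and the study's methods also poly(A) purification. Which library was made which way is not stated, so shares of histone, ribosomal protein and receptor genes may also reflect library preparation, which was not tested. Each library's table, as the authors deposited it, holds estimated counts (raw fragments per gene for 23356 genes), beside scaled fragments and FPKM values not used here. The submitters' processing notes name mm10, the study's methods name mm9, and the tables hold no coordinates. The aligner is not given in the sources used here. Estimated counts were rounded, and 27 symbols turned into dates were restored from row order. The members and lists were chosen with earlier results of these data known.

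Times were compared with the quasi-likelihood test of edgeR (version 4.0.16, with limma 3.58.1 and R 4.3.3) with TMM scaling on genes with at least 1 count in each of the 5 libraries, a strict reading of the study's removal of zero counts. p-values were adjusted over all genes (Benjamini-Hochberg), with a threshold of 0.05. SE refers to the log2 fold change and was not estimated separately. It was back-calculated from the fitted log2 fold change and the F statistic of the same test. It is therefore no measure of error independent of that test's p-value. The labels do not say that replicates were separate cultures, so p-values measure only the spread between these libraries, which may be technical. The fit was tested on simulated data.

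Named genes were the 4 markers and, as fewer than 5 genes of a direction were called, the 12 with the smallest p in each direction, leaving out symbols of ribosomal proteins, predicted genes and Rik clones. The kinase gene Rps6ka2 matches the ribosomal protein pattern and was left out with them, although its p would have placed it there. Alternatives were DESeq2 1.42.0, edgeR's exact test, voom, other scalings, filters and depths, all 4 libraries a side, 5 fits that each left out 1 library, and a correction for transcript GC content (GENCODE M1 on NCBIM37, longest protein-coding transcript, a lowess trend per library). Promoters came from RefSeq tables of GRCm38.p6, matched by symbol or older symbol.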

Additional observations from a re-analysis of the deposited data

How the results depend on the processing

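The main comparison called 0 genes higher and 0 lower. Calls appeared with filterByExpr (1 higher, 4 lower), with no filter on low counts (21 and 8), with DESeq2 (34 and 19), with edgeR's exact test (3 and 1) and with the GC correction without 405 min replicate 3 (4 higher, 0 lower). Leaving out 1 library at a time gave 0 to 9 genes higher, the 9 without 405 min replicate 3, and 0 to 0 lower. The cause of these differences was not tested. Over the 22 alternatives, the genes at an unadjusted p under 0.05 numbered 17 to 949 higher and 16 to 770 lower. Of 522 values of named genes under alternatives, 475 kept their sign and stayed over an adjusted p of 0.05, 46 came under it, and 1 turned, the log2 fold change of Sox4, to -0.19 with all 4 libraries a side.

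The selected libraries share only replicate number 1, so the main comparison could not be blocked. With all 4 libraries a side and the replicate number as a block, 0 genes were higher and 0 lower (edgeR quasi-likelihood test), with 17 and 16 at an unadjusted p under 0.05. Deviations of same-numbered libraries from their group means correlated with r = 0.587, -0.609, 0.368 and -0.728 for numbers 1 to 4, so the numbers are not taken to pair the libraries.

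With 3 and 2 libraries a side that differ 14.4-fold in depth and have a spread of 71.6%, genes that did not pass are not shown to be equal at the 2 times.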
